A study of Mus musculus with 2 samples.

Results

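A set of 9 integrin and adhesion genes of T cells was followed in splenic donor T cells after allo-HCT. The genes are Itga4, Itgae, Itgal, Itgb1, Itgb2, Itgb7, Selplg, Cd44 and Icam1, which are 9 of the 32285 genes listed. They were taken by symbol, with no threshold on their values, as a set chosen with earlier results of these data known. The cells came from a fully allogeneic model in which irradiated BALB/c mice received T cell-depleted bone marrow and splenic T cells, both from C57BL/6 mice. Cells with donor H2Kb but not recipient H2Kd, and with CD45 and TCRβ, were sorted from pooled spleens on day +7 or day +14, and scRNA-seq was run on the 10x Genomics Chromium system in 2 libraries, 1 per day. The donors of both libraries carried no labelled genetic change, and the library names hold the word PBS, which the sources used here do not explain. Since the sorting protocol of both libraries names day +7, the day of each was read from its title.

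Integrins are pairs of an alpha and a beta chain that bind ligands on other cells or in the matrix once signals from inside the T cell have switched them to an active shape. The alpha 4 chain (Itga4) pairs with beta 1 (Itgb1) to bind VCAM1 on inflamed vessels, or with beta 7 (Itgb7) to bind MAdCAM1 on vessels of the gut, a target organ of GvHD. Beta 7 also pairs with alpha E (Itgae, the CD103 chain), which binds E-cadherin on epithelium. Alpha L (Itgal) and beta 2 (Itgb2) form LFA1, which binds ICAM1 (Icam1) on antigen-presenting cells, on endothelium and on other T cells. PSGL1 (Selplg) is the main selectin ligand of T cells and begins rolling on vessel walls, and CD44 (Cd44) binds hyaluronan and is a surface marker of activated and memory T cells.

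RefSeq promoters were given for 5 of the 9 genes, namely Itga4, Itgb1, Itgb7, Cd44 and Icam1. The windows of Icam1, which had the highest ratio of day +14 over day +7 in CD8 cells, and of Itgb1 and Itgb7, which had the lowest, are printed so that the DNA beside opposite differences can be read. Each holds the 250 bases before the start of the gene in GRCm38.p6, 5′ to 3′ on the strand of the gene. The RefSeq start lies 45 bases from that of GENCODE M21 for Icam1 and 9 bases from it for Itgb7. Capitals mark the letters of the motifs searched on both strands. Icam1 lies at chr9:21015690-21015939 on the plus strand, Itgb1 at chr8:128685404-128685653 on the plus strand and Itgb7 at chr15:102231936-102232185 on the minus strand.
Icam1: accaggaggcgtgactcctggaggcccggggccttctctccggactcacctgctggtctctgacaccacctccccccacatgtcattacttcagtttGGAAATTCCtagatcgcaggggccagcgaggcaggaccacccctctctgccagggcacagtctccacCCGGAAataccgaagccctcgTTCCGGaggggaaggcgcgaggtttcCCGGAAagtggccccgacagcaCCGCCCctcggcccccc
Itgb1: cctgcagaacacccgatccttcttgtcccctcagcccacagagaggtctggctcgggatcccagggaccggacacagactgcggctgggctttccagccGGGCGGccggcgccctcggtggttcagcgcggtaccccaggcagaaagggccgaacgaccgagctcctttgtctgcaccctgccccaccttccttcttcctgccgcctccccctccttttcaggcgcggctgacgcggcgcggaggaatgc
Itgb7: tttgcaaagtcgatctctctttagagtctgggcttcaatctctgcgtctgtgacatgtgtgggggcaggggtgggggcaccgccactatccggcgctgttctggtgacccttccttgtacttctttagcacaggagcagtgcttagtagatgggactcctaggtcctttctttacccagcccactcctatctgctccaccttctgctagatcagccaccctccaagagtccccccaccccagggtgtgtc
The 7 motifs searched were 2 of NF-kappaB (GGAAATTCC and a longer form), GGGCGG (SP), CCGGAA (ETS), TGTGGT (RUNX), TGANTCA (AP-1) and TGACGTCA (CRE), and none of the matches printed overlapped another. The longer form was found in 0 of the 5 windows. The Icam1 window held GGAAATTCC once, 3 matches of CCGGAA and 1 of GGGCGG. The Itgb1 window held 1 match of GGGCGG, and none of the 7 motifs was found in the window of Itgb7. Of 32851 promoter windows of this length, 0.286% held GGAAATTCC, 12.0% held CCGGAA and 32.7% held GGGCGG. These matches describe the letters alone.

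In GENCODE M21 on GRCm38 (mm10), the genes lie at chr2:79255426-79333123 (Itga4), chr11:73090583-73147446 (Itgae), chr7:127296260-127335138 (Itgal), chr8:128685654-128733200 (Itgb1), chr10:77530252-77565708 (Itgb2), chr15:102215995-102231944 (Itgb7), chr5:113818536-113832644 (Selplg), chr2:102811141-102901665 (Cd44) and chr9:21015985-21028817 (Icam1). Haspin lies inside Itgae on the other strand. Cerkl overlaps the 3′ end of Itga4 on the other strand, Gm47079 overlaps Icam1 and Gm23731 overlaps Cd44, and the strand setting of the counting was not given in the sources used here.

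After the filters, 7179 of 7355 barcodes were kept on day +7 and 7794 of 8043 on day +14, with 86745047 and 83808218 UMIs and medians of 9210 and 8144 UMIs per cell. Of these barcodes, 17 were the same in both libraries. UMIs (unique molecular identifiers, 1 per captured RNA molecule) were summed over the cells of a gate and given per 1000000 UMIs of that gate (CPM), with 95% exact Poisson intervals in brackets. Ratios are log2 of CPM + 1 with exact conditional binomial intervals, which are those of the ratio without the added 1 and so sit off-centre for low genes. With 1 library per day there was no replicate and no test, and all intervals cover counting error only. A gene was counted as higher or lower past a ratio of 1.5 (0.58 on the log2 scale) where its mean was at least 10 CPM. Because the median gene itself was not at 0, its log2 ratio is given where it matters (0.18 for day +14 over day +7 in CD8 cells).

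Gates were set by UMIs: CD8 (a Cd8a or Cd8b1 UMI, none of Cd4 or Foxp3; 5838 cells on day +7 and 5945 on day +14), conventional CD4 (a Cd4 UMI, none of Cd8a, Cd8b1 or Foxp3; 458 and 695) and Foxp3+ (a Foxp3 UMI, no Cd8 UMI; 42 and 39). T cells with UMIs of both Cd4 and a Cd8 gene, 207 on day +7 and 522 on day +14, were in none of these gates. Their medians were 17237 and 13706 UMIs, against 8260 and 5325 in conventional CD4 cells. An alternative gate with Cd4 UMIs at least 3 times the Cd8 UMIs held 475 and 730 cells. The part of the cells still left out was not tested. Cells with at least 10 UMIs per 10000 from 22 cell cycle genes were called cycling, which held 3544 and 3913 CD8 cells. Of CD8 cells, 1387 on day +7 and 1296 on day +14 lay between 5 and 20, close to that limit. The 6 T cell genes Cd3d, Cd3e, Cd3g, Trac, Trbc1 and Trbc2 were all detected in every T gate. Their sum was higher on day +14, at 5937 and 7646 CPM in CD8, 6965 and 9592 CPM in non-cycling CD8 and 6058 and 7653 CPM in conventional CD4 cells, so they moved in the same direction as the LFA1 genes, and their part was not tested. The Foxp3+ gate also held Il2ra, Ikzf2, Ctla4 and Tnfrsf18, other regulatory T cell genes, at 1778 CPM on day +7 and 2906 CPM on day +14, against 318 and 454 CPM in conventional CD4 cells. Of the other lists in CD8 cells, the 14 myeloid genes summed to 248 and 95.7 CPM, the 4 B cell genes to 21.7 and 2.93 CPM and the 4 NK cell genes to 7.65 and 0.698 CPM, all lower on day +14. Klra4 and Klra8 of the NK cell list had no UMI in CD8 cells, and the part of such RNA in the values that follow was not tested.

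The genes of LFA1 and its ligand were higher on day +14 in CD8 and in conventional CD4 cells. In non-cycling CD8 cells, Itgal was at 190.4 CPM [184, 197] on day +7 and 274 CPM [265, 284] on day +14, a log2 ratio of 0.52 [0.46, 0.60]. Itgb2, its partner chain, was at 181 CPM [175, 188] and 279 CPM [269.8, 289], a ratio of 0.62 [0.55, 0.70]. Icam1 was at 31.8 CPM [29.1, 34.6] and 51.7 CPM [47.7, 55.9], a ratio of 0.68 [0.53, 0.87]. All 3 had intervals on day +14 above and clear of those on day +7. The same held in cycling CD8 cells, where Itgal was at 137 and 186 CPM, Itgb2 at 179.7 and 243 CPM and Icam1 at 21.4 and 32.1 CPM. In non-cycling conventional CD4 cells the ratios were 0.87 [0.68, 1.07] for Itgal, 0.61 [0.42, 0.81] for Itgb2 and 1.03 [0.51, 1.65] for Icam1, the last from 38 and 98 UMIs.

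**Figure D1:**
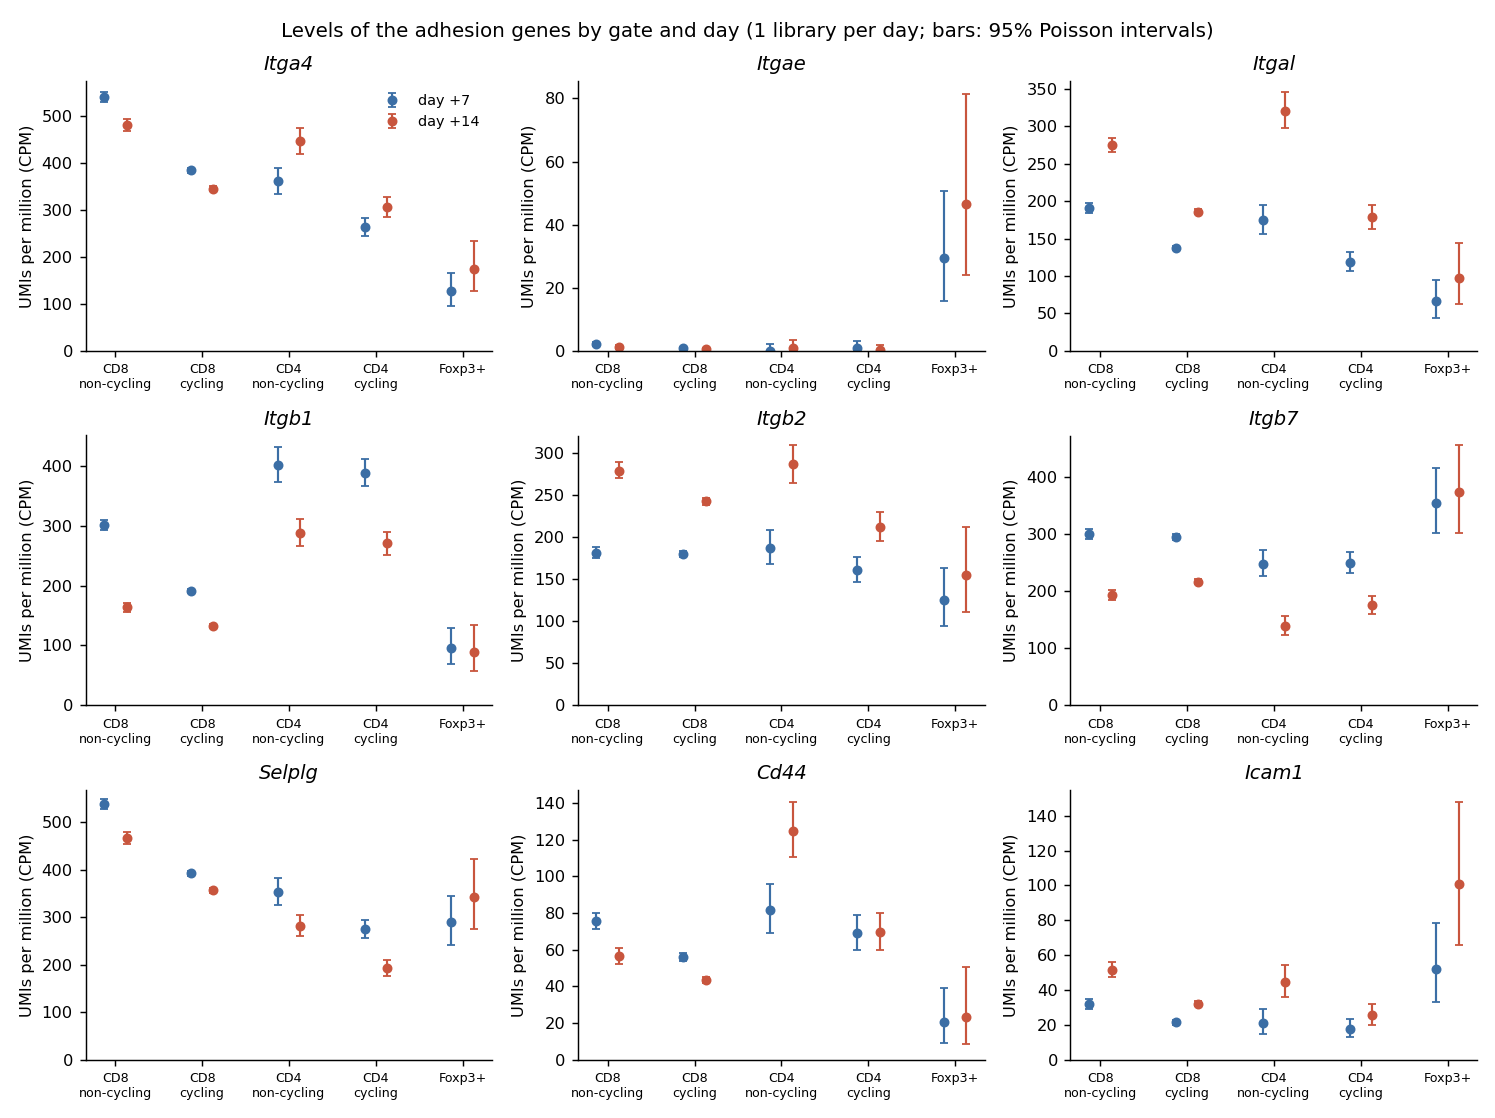
Levels of the 9 genes in 5 gates. Each panel is 1 gene, the y axis is CPM, blue points are day +7, red points are day +14, and bars are 95% exact Poisson intervals for 1 library per day. Itgb1 and Itgb7 lie lower and Itgal and Itgb2 higher on day +14 in each CD8 and CD4 gate, and Itgae stands at 29.6 and 46.6 CPM in Foxp3+ cells against 2.06 CPM or less in the other 4 gates.

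The beta 1 and beta 7 chains were lower on day +14 in the same cells. In non-cycling CD8 cells, Itgb1 was at 302 CPM [293, 310.2] on day +7 and 164 CPM [157, 171] on day +14, a ratio of -0.88 [-0.96, -0.80]. Itgb7 was at 299 CPM [291, 308] and 193 CPM [185, 201], a ratio of -0.63 [-0.71, -0.56]. The intervals of the days did not overlap for either gene. Conventional CD4 cells held Itgb1 at 394 CPM [376, 412] and 278 CPM [264, 293], a ratio of -0.50 [-0.60, -0.40]. Itgb7 was at 249 CPM [235, 264] and 159 CPM [148, 171], a ratio of -0.64 [-0.78, -0.51]. Both beta chains therefore lay lower on day +14 in both lineages.

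The alpha 4 chain differed less between days in CD8 cells than its beta partners, and the other way in CD4 cells. In CD8 cells, Itga4 was at 422 CPM [417, 426] on day +7 and 369.8 CPM [365, 374] on day +14, a ratio of -0.19 [-0.21, -0.16], smaller in size than those of Itgb1 (-0.65 [-0.69, -0.62]) and Itgb7 (-0.48 [-0.51, -0.45]). In conventional CD4 cells, Itga4 was instead higher on day +14, at 368 CPM [351, 385] against 299.9 CPM [284, 316], a ratio of 0.29 [0.19, 0.40]. The log2 difference between the lineages in this ratio, CD4 minus CD8, was 0.48 [0.38, 0.59].

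Cd44 also went opposite ways in the 2 lineages. It was at 60.7 CPM [58.8, 62.5] on day +7 and 45.9 CPM [44.3, 47.6] on day +14 in CD8 cells, a ratio of -0.39 [-0.47, -0.33]. It was in conventional CD4 cells at 73.7 CPM [66.2, 81.8] and 93.9 CPM [85.6, 103], a ratio of 0.34 [0.15, 0.55], and CD4 minus CD8 was 0.75 [0.54, 0.96]. Within CD4 cells, the ratio was 0.61 [0.32, 0.91] in non-cycling and 0.01 [-0.28, 0.30] in cycling cells. With each cell thinned to 4000 UMIs, it was 0.77 in non-cycling and 0.51 in cycling CD4 cells, so the value in cycling cells depended on thinning. The 2 libraries differed in the depth of these cells, with medians of 6685 and 4362 UMIs in non-cycling conventional CD4 cells on day +7 and day +14, and the part of depth in the difference was not tested beyond the values for thinned cells given here. With each cell reduced to 4000 UMIs, Cd44 had a UMI in 22.0% [18.3, 26.2] of conventional CD4 cells on day +7 and 32.1% [28.0, 36.4] on day +14, against 22.5% [21.4, 23.6] and 17.1% [16.2, 18.2] of CD8 cells, with 95% Clopper-Pearson intervals. Selplg was lower on day +14 in both lineages, at 427 and 376 CPM in CD8 cells, a ratio of -0.18. It was at 304 and 232 CPM in conventional CD4 cells, a ratio of -0.39, and CD4 minus CD8 was -0.21 [-0.32, -0.09].

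Counted over all CD8 cells, 8 of the 9 genes passed the limit on low values. None was past 1.5-fold higher, against a background of 8.37% of all genes tested, and 1 (Itgb1) was past 1.5-fold lower, against 2.81%. Their median log2 ratio was -0.19, below the 0.18 of all genes. In non-cycling CD8 cells, 2 genes (Itgb2 and Icam1) were past 1.5-fold higher and 2 (Itgb1 and Itgb7) lower, against backgrounds of 16.3% and 3.4%. With the median ratio of genes as the scale, which lowers every ratio in these cells by 0.21, the split was 0 higher and 3 lower, against 7.71% and 6.76% of all genes on that scale. In cycling CD8 cells none was past the limit in either direction (backgrounds 6.87% and 2.59%). Itgal and Icam1 were in conventional CD4 cells past 1.5-fold higher (background 14.3%) and Itgb7 lower (2.87%). In non-cycling CD4 cells, Itgal, Itgb2, Cd44 and Icam1 were higher (22.9%) and Itgb7 lower (4.23%). No gene was past the limit in cycling CD4 cells (backgrounds 11.3% and 3.71%) or over all kept cells (8.45% and 2.67%). In cycling CD4 cells Itgal was just inside it at a ratio of 1.49. Over the alternatives its log2 ratio there lay between 0.47 and 0.89, on both sides of the limit. Relative to the median gene, Itgal, Itgb2 and Icam1 were at 0.25, 0.29 and 0.38 in CD8 cells, and Itgb1 and Itgb7 at -0.83 and -0.66. Directions were therefore kept on that scale for these 5 genes in CD8 cells.

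**Figure D2:**
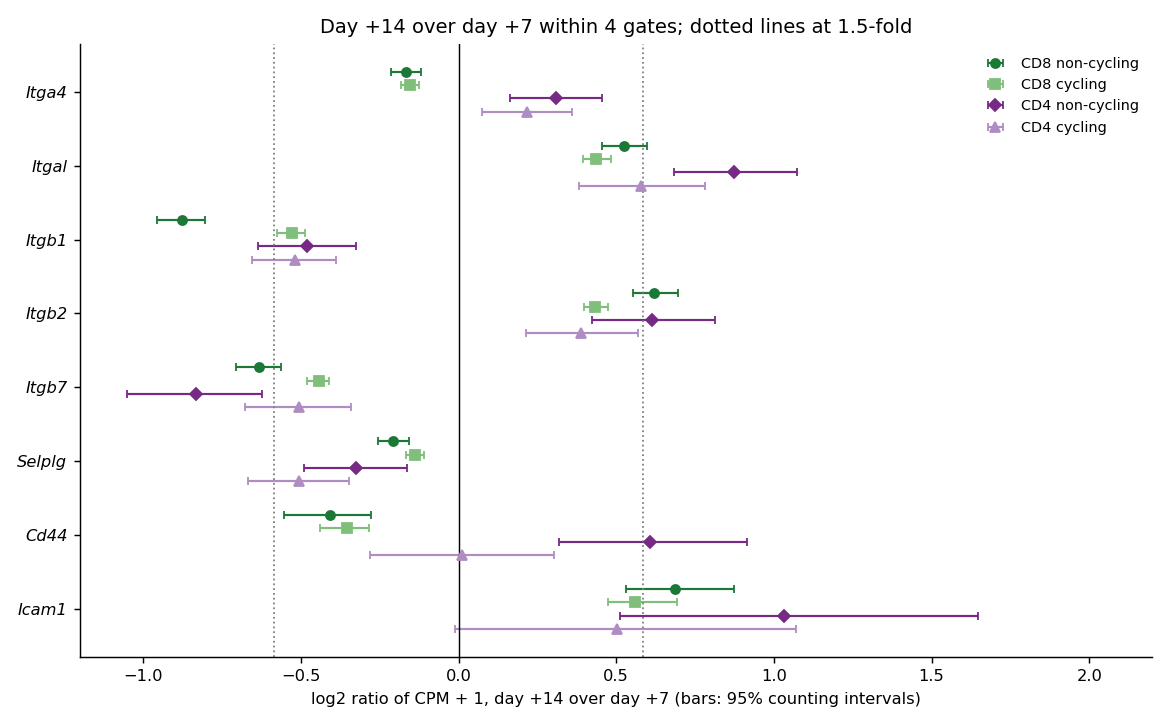
Day +14 over day +7 for 8 of the 9 genes in 4 gates. The x axis is the log2 ratio of CPM + 1, bars are 95% counting intervals, and dotted lines mark 1.5-fold. Itgal, Itgb2 and Icam1 lie right of 0 and Itgb1, Itgb7 and Selplg left of 0 in all 4 gates, although the interval of Icam1 in cycling CD4 cells includes 0, and Itga4 and Cd44 lie left in CD8 and right in CD4 gates (Cd44 at 0.01 in cycling CD4 cells).

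Ratios between 2 chains within a library do not depend on how the libraries are scaled. UMIs of Itgb2 per UMI of Itgb1 were 0.60 on day +7 and 1.70 on day +14 in non-cycling CD8 cells, a log2 change of 1.5 [1.40, 1.61]. The change was 0.97 [0.91, 1.02] in cycling CD8 cells and 1.02 [0.85, 1.18] in conventional CD4 cells. For Itgb2 over Itgb7 the change was 1.26 [1.16, 1.36] in non-cycling CD8 cells, 0.88 [0.83, 0.93] in cycling CD8 cells and 1.16 [0.98, 1.35] in conventional CD4 cells. In each of these gates, beta 2 transcripts were higher on day +14 relative to both other beta chains. For the alpha chains, Itgal over Itga4 changed by 0.62 [0.57, 0.66] in CD8 and 0.49 [0.32, 0.66] in conventional CD4 cells.

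The proportion of the 2 chains of LFA1 differed little between days in CD8 cells. Itgal over Itgb2 was 0.83 on day +7 and 0.81 on day +14, a change of -0.04 [-0.09, 0.01] whose interval includes 0. In conventional CD4 cells it changed by 0.27 [0.07, 0.46]. The alpha 4 chain was higher relative to both of its partners on day +14, by 0.47 [0.42, 0.51] over Itgb1 and 0.29 [0.25, 0.33] over Itgb7 in CD8 cells and by 0.79 [0.65, 0.94] and 0.94 [0.77, 1.10] in conventional CD4 cells. In Foxp3+ cells the intervals of all these changes included 0.

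**Figure D3:**
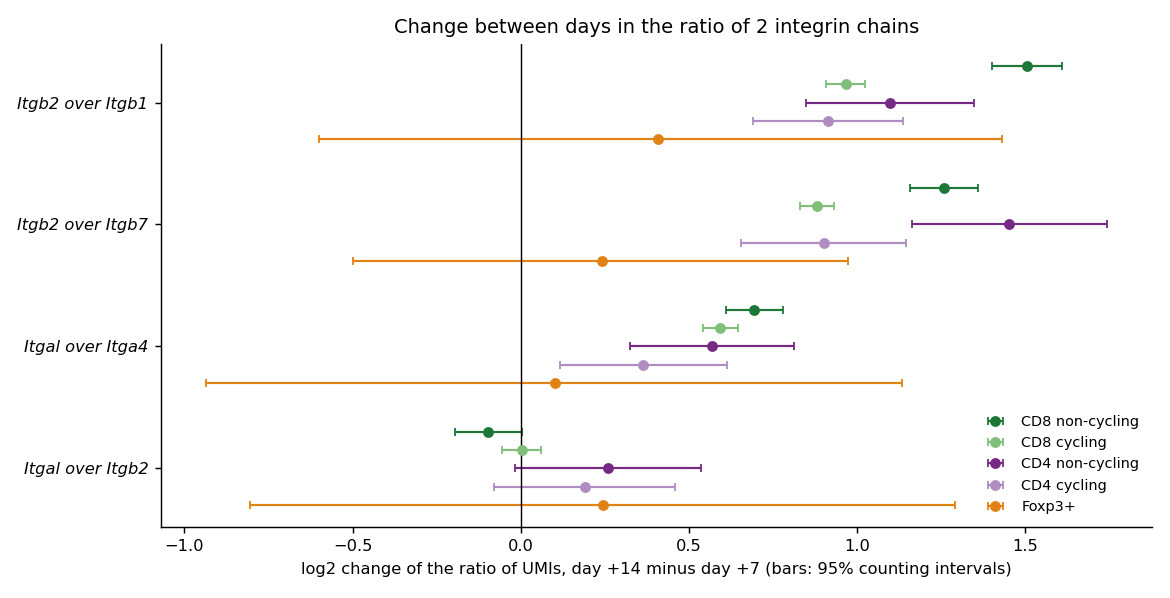
Change between days in the ratio of 2 integrin chains. The x axis is the log2 change of the ratio of UMIs, day +14 minus day +7, for 5 gates, and bars are 95% counting intervals. Itgb2 over Itgb1, Itgb2 over Itgb7 and Itgal over Itga4 lie right of 0 with intervals clear of it in all 4 CD8 and CD4 gates, Itgal over Itgb2 lies near 0 in the CD8 gates and at 0.26 and 0.19 in the non-cycling and cycling CD4 gates with bars that cross 0, and the bars of Foxp3+ cells cross 0 throughout.

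Cycling CD8 cells carried less of most of these transcripts, in CPM, than non-cycling CD8 cells on the same day. On day +7, Itgb1 was at 192 CPM in cycling and 302 CPM in non-cycling cells, a log2 ratio of -0.65 [-0.70, -0.61], and on day +14 the ratio was -0.30 [-0.38, -0.23]. Itga4 gave -0.49 [-0.53, -0.45] and -0.48 [-0.52, -0.44] on the 2 days, Itgal -0.47 and -0.56, Selplg -0.45 and -0.38, Cd44 -0.42 and -0.37, and Icam1 -0.55 and -0.67. Itgb7 was the exception, at -0.02 [-0.07, 0.02] and 0.16 [0.10, 0.23], and Itgb2 lay between, at -0.01 [-0.07, 0.05] and -0.20 [-0.26, -0.15]. Past 1.5-fold lower were 1 gene on day +7 (Itgb1, background 6.92%) and 1 on day +14 (Icam1, background 10.2%), and none was past 1.5-fold higher (background 15.4% on each day). Cycling cells were deeper, with medians of 12612 and 11593 UMIs against 6661 and 5251 in non-cycling CD8 cells. With each cell thinned to 4000 UMIs, Itgb1 gave -0.50 on day +7 and no gene was past the limit on either day.

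Between lineages, Itgb1 was higher in conventional CD4 than in CD8 cells on both days. Conventional CD4 cells held 394 CPM [376, 412] on day +7 and 278 CPM [264, 293] on day +14, against 218 CPM [214, 221] and 138 CPM [135, 141] in CD8 cells, log2 ratios of 0.85 [0.78, 0.92] and 1.00 [0.93, 1.09]. Cd44 gave 0.28 [0.12, 0.44] on day +7 and 1.02 [0.89, 1.17] on day +14. Selplg was lower in CD4 cells, with -0.49 [-0.57, -0.41] and -0.69 [-0.78, -0.61], as was Itgb7, with -0.25 [-0.33, -0.16] and -0.41 [-0.52, -0.31]. Itga4 was lower in CD4 cells on day +7 (-0.49 [-0.57, -0.41]) and close to 0 on day +14 (-0.01 [-0.08, 0.06]). For Itgb2 the intervals included 0 on both days. With non-cycling cells alone in both lineages, Itgb1 gave 0.41 [0.30, 0.53] and 0.81 [0.68, 0.94], and Cd44 0.11 [-0.15, 0.36] and 1.13 [0.93, 1.34]. Past 1.5-fold higher were Itgb1 on day +7 (background 3.78%) and Itgb1 and Cd44 on day +14 (6.62%). None was past 1.5-fold lower on day +7 (2.02%) and Selplg was on day +14 (2.96%). Among non-cycling cells, none was higher on day +7 and Itgb1 and Cd44 were on day +14 (backgrounds 7.21% and 8.4%), and Selplg was lower on both days (3.7% and 3.26%). On day +7, the ratio of Cd44 over all cells of both gates was -0.0030 with each cell thinned to 4000 UMIs.

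**Figure D4:**
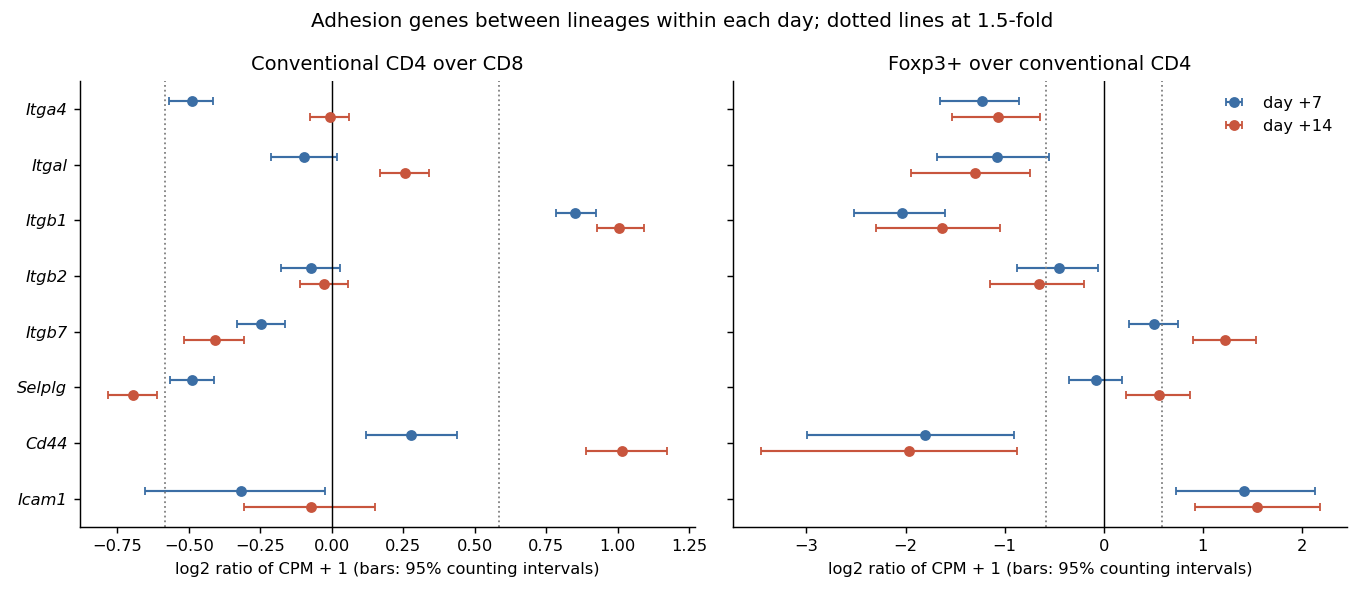
Log2 ratios of CPM + 1 for 8 of the 9 genes, conventional CD4 over CD8 (left) and Foxp3+ over conventional CD4 (right). Blue points are day +7, red points are day +14, bars are 95% counting intervals and dotted lines mark 1.5-fold. On the left Itgb1 lies past 1.5-fold higher on both days and Cd44 on day +14, and on the right Itga4, Itgal, Itgb1 and Cd44 lie past 1.5-fold lower and Icam1 past 1.5-fold higher on both days.

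Foxp3+ cells, few in number, had more Itgae, Itgb7 and Icam1 and less Itga4, Itgal, Itgb1 and Cd44 than conventional CD4 cells. Itgae had 13 UMIs in 42 cells on day +7, 29.6 CPM [15.7, 50.5], and 12 UMIs in 39 cells on day +14, 46.6 CPM [24.1, 81.4]. In conventional CD4 cells it had 3 UMIs on each day, 0.633 CPM [0.131, 1.85] and 0.6 CPM [0.124, 1.75], and in CD8 cells 85 and 47 UMIs, 1.23 CPM [0.983, 1.52] and 0.713 CPM [0.524, 0.949]. Against CD8 cells, with no CPM added, the level in Foxp3+ cells was 24.0-fold [12.3, 43.3] on day +7 and 65.4-fold [31.6, 125] on day +14. Itgae passed the limit on low values only in comparisons with Foxp3+ cells, through their own level. Haspin, on the other strand inside Itgae, had 8 and 5 UMIs in Foxp3+ cells, 18.2 and 19.4 CPM. In cycling CD8 cells of day +14 Haspin was at 26.6 CPM and Itgae at 0.612 CPM. The part of Haspin RNA in the Itgae counts was not tested. Foxp3+ cells held 9.92% and 11.9% of all Itgae UMIs with 0.507% and 0.307% of all UMIs. Cells with both Foxp3 and Cd8 UMIs, 157 on day +7 and 50 on day +14, were kept apart and had Itgae at 8.84 CPM [5.6, 13.3] and 22.5 CPM [13.4, 35.6], between the 2 gates.

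The other integrin chains of Foxp3+ cells lay mostly below those of conventional CD4 cells. Itgb1 was at 95.5 CPM [68.8, 129] on day +7 and 89.4 CPM [56.6, 134] on day +14, log2 ratios to conventional CD4 cells of -2.03 [-2.52, -1.60] and -1.63 [-2.30, -1.05]. Itga4 gave -1.23 [-1.65, -0.85] and -1.07 [-1.53, -0.65], and Itgal -1.08 [-1.68, -0.55] and -1.30 [-1.95, -0.74]. Cd44, with 9 and 6 UMIs, gave -1.80 [-2.99, -0.91] and -1.96 [-3.46, -0.88]. By contrast Itgb7, the partner of alpha E, gave 0.51 [0.26, 0.75] and 1.22 [0.91, 1.53], and Icam1, with 23 and 26 UMIs, gave 1.41 [0.73, 2.13] and 1.55 [0.92, 2.18]. Leaving Itgae out of the count, past 1.5-fold higher were 1 gene on day +7 (Icam1) and 2 on day +14 (Itgb7 as well), against backgrounds of 13.9% and 18.9%. Past 1.5-fold lower were 4 on day +7 (Itga4, Itgal, Itgb1 and Cd44) and 5 on day +14 (Itgb2 as well), against 12% and 15.7%. With the Foxp3 cells that also held Cd8 UMIs included, which was tried after the data were seen, the ratio of Itga4 to conventional CD4 cells was -0.20 on day +7 and -0.65 on day +14, that of Itgal was -0.52 and -0.53, and that of Itgb1 was -1.93 and -1.73. Itgal on both days, Itga4 on day +7 and Itgb2 on day +14 were then within 1.5-fold. Erythroid genes summed to 250 CPM in the Foxp3+ gate on day +7 and 15.5 CPM on day +14. In the cells held out for erythroid genes, Itgae had 0 UMIs, with intervals reaching 4.61 CPM on day +7 and 46.0 CPM on day +14. The part of erythroid RNA in the Foxp3+ values was not tested.

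Against CD8 cells, 1 of the other 8 genes was past 1.5-fold higher in Foxp3+ cells on day +7 (Icam1, background 16.3%) and 2 on day +14 (with Itgb7, 21.2%). Past 1.5-fold lower were 4 on day +7 (11.8%) and 5 on day +14 (15.6%), among them Itga4 with -1.72 [-2.13, -1.35] and -1.08 [-1.54, -0.66]. Between the days, Icam1 and Itgae were past 1.5-fold higher in Foxp3+ cells, with 0.94 [0.08, 1.83] and 0.64 [-0.60, 1.91], and none was past 1.5-fold lower. At these counts 28.3% of all genes were past 1.5-fold higher and 12.9% lower, so the depth of this gate could show little between days.

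Cells with a UMI of a gene were counted after thinning each cell to 4000 UMIs, which left out 73 and 366 non-cycling CD8 cells and 12 and 175 non-cycling conventional CD4 cells on day +7 and day +14. Itgal had a UMI in 44.7% [43.4, 46.0] of CD8 cells on day +7 and 56.3% [54.9, 57.6] on day +14. Unthinned, these shares were 74.0% and 80.9%. Itgb1 had one in 49.8% [48.5, 51.1] and 37.3% [36.0, 38.6] (73.8% and 60.1% unthinned), and Icam1 in 9.42% [8.68, 10.2] and 14.4% [13.4, 15.3] (22.3% and 29.4% unthinned). The direction of each share was that of its CPM. Cells held out for erythroid genes were also required to have under 3 UMIs of the 6 T cell genes. In the 28 of them deep enough on day +7, Itgal and Itgb2 were each found in 0. This allows a share of up to 10.7%, taken as 3 cells over 28 and not as a Clopper-Pearson limit. These 28 cells had a median of 31656 UMIs before thinning. Unthinned, Itgb2 had 4 UMIs in all such cells of day +7 (5.0 CPM [1.36, 12.8]) and 3 in those of day +14 (37.4 CPM [7.71, 109]), where 5 cells were deep enough to thin. Because these cells were picked for few T cell UMIs, their shares set no limit on stray T cell RNA in CD8 cells. On day +14 they were also too few. The 28 cells of day +7 had Cd44 in 14.3% [4.03, 32.7] and Icam1 in 7.14% [0.877, 23.5], genes that erythroid precursors can express. These intervals include the shares in CD8 cells.

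Both chains of a heterodimer were found in a cell about as often as their single shares predict. Itgal and Itgb2 were found together in 25.4% [23.6, 27.3] of non-cycling CD8 cells on day +7 and 42.4% [40.0, 44.8] on day +14, where the products of the single shares were 24.7% and 40.9%. Itga4 and Itgb1 were found together in 44.9% [42.8, 47.0] and 30.1% [27.9, 32.3], with products of 44.7% and 29.7%. For Itga4 and Itgb7 the shares were 51.7% [49.6, 53.8] and 37.5% [35.2, 39.9], with products of 51.4% and 35.0%. In these cells the product lay inside the interval for the first 2 pairs and for the third on day +7, and just below it for Itga4 and Itgb7 on day +14. The median cell held UMIs of 4 of the 9 genes in each CD8 and CD4 gate on both days.

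**Figure D5:**
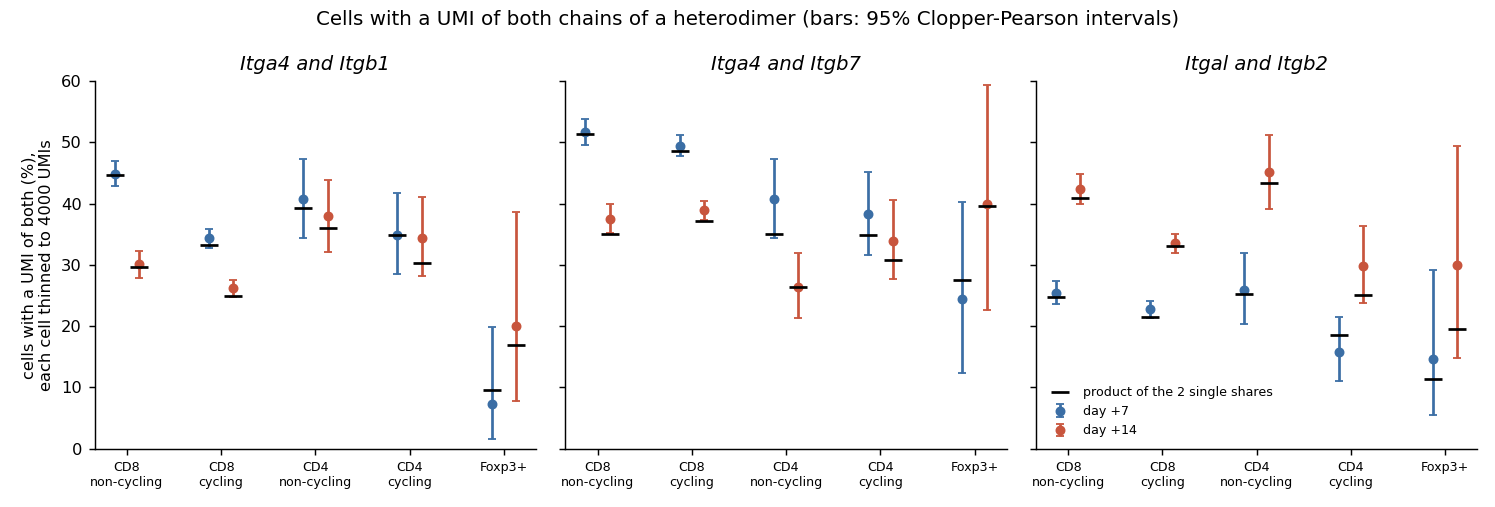
Percent of cells with a UMI of both chains of a heterodimer, each cell thinned to 4000 UMIs, in 5 gates. Blue points are day +7, red points are day +14, bars are 95% Clopper-Pearson intervals and black dashes are the product of the 2 single shares. Itga4 with Itgb1 and Itga4 with Itgb7 are lower and Itgal with Itgb2 higher on day +14 in both CD8 gates, and the dashes lie close to the points.

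Most Itgae UMIs lay outside the Foxp3+ gate. Of 131 on day +7 and 101 on day +14, CD8 cells held 85 and 47. T cells in no lineage gate, among them those with both Foxp3 and Cd8 UMIs, held 29 and 36. Within non-cycling CD8 cells, those with an Itgae UMI were too few to be described further. Of non-cycling CD8 cells thinned to 4000 UMIs, 16 had an Itgae UMI on day +7 and 6 on day +14. On day +7 those 16 cells held 6 UMIs of Cd69, which marks recently activated and tissue-resident T cells. That was 93.8 CPM against 106 CPM in the 2205 cells without an Itgae UMI. Cxcr6 had 21 UMIs, 328 against 296 CPM. S1pr1, the receptor for egress from lymphoid tissue, had 16 UMIs, 250 against 140 CPM. Xcl1 and Prdm1 had 0 UMIs in the 16 cells, against 56.8 and 22.0 CPM in the others, too low for a 0 to tell. The 6 cells of day +14 differed from this. They held 4 UMIs of Cd69 (167 against 50.8 CPM) and 7 of Cxcr6 (292 against 508 CPM). S1pr1 had 2 UMIs (83.3 against 50.8 CPM), Xcl1 7 (292 against 173 CPM) and Prdm1 0. The genes named are some of the 30 of tissue residency and egress. No ratio is given from such counts.

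The other genes of the pathway are given by lists and by the largest differences in CD8 cells, day +14 over day +7, beside the 8.37% higher and 2.81% lower of all genes. Of 21 other integrin chains, 5 were tested, 1 was past 1.5-fold higher and 2 lower. They were Itgav (alpha V, log2 ratio 1.08 [1.02, 1.25]), Itgax (the CD11c chain, -1.42 [-1.62, -1.38]) and Itga1 (a collagen receptor chain, -1.76 [-2.0, -1.74]), and Itgb3 (beta 3) gave -0.39 [-0.54, -0.29]. Of 35 integrin activators and adaptors, 33 were tested, 4 were higher and 1 lower, among them Lims1 (0.79 [0.73, 0.87]), Fyb (the adaptor ADAP, 0.68 [0.64, 0.71]) and Filip1l (0.68 [0.60, 0.84]). The lower gene was Rasgrp2 (-0.90 [-0.93, -0.87]), an exchange factor that activates Rap1 and through it integrins. Rasgrp2 was lower in conventional CD4 cells as well (-1.19 [-1.34, -1.05]). The median of this list was 0.18, the same as that of all genes.

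Of 24 genes of selectins and the synthesis of their ligands, 11 were tested, 1 was higher and 0 were lower. The higher gene was Chst2 (2.0 [2.0, 2.27]), a sulfotransferase that acts on selectin ligands, at 7.98 CPM on day +7 and 35.0 CPM on day +14, and it gave 1.95 [1.65, 2.39] in conventional CD4 cells. St3gal1, St3gal6 and Galnt1, sugar transferases, gave 0.42, -0.36 and 0.20. Of 26 immunoglobulin-family adhesion genes in the files, 16 were tested, 3 were higher and 2 lower. Cd6 (0.82 [0.76, 0.93]) and Cd84 (0.69 [0.64, 0.77]), which bind partners on other leukocytes, were higher, and Jaml (-1.84 [-2.06, -1.81]) and Cd47 (-0.72 [-0.74, -0.70]) lower. Of 30 genes of tissue residency and egress, 18 were tested, 3 were higher and 7 lower. Xcl1 (1.70 [1.66, 1.79]), a chemokine, was higher, and S1pr1 (-1.19 [-1.27, -1.15]), Cd69 (-1.13 [-1.22, -1.08]) and Ccr2 (-2.45 [-2.64, -2.43]), a chemokine receptor of inflamed tissue, were lower. The values are given as background to the 9 genes, and nothing is read as particular to a list.

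The genes most like each member were sought by Pearson's r of log2 CPM + 1 over 10 points, 5 gates on 2 days, among 6925 genes. The points share libraries, so r is a description. Itgal was closest to Copz1 (0.98), 1110059G10Rik (0.98) and Orai2 (0.97), and Itgb2 to Rgs16 (0.99), Arntl (0.98) and Sipa1 (0.97). Itgal and Itgb2 themselves had r of 0.95. Itgb7 ran against both, with r of -0.84 to Itgal and -0.87 to Itgb2, and its closest genes were Krtcap2, Cuta and Tbcb (0.94 each). Itga4 was closest to Ctsd, Nod1 and Ctsw (0.98, 0.98 and 0.97), and Itgb1 to Ptpn6 (0.94), Serpinb1a (0.92) and Plxnc1 (0.91). Selplg was closest to Otulinl, Plec (0.92 each) and Smap2 (0.89), Cd44 to Sntb2, Tnfsf14 and Cd9 (0.97 each), and Icam1 to Entpd1 (0.98), Helz and Aup1 (0.97 each). Both Foxp3+ points lay below the other 8 for Itga4, Itgal, Itgb1, Itgb2 and Cd44 and above them for Itgb7 and Icam1. Over those 8 points, tried after the data were seen, r was 0.91 for Itgal and Itgb2, -0.72 for Itgal and Itgb7 and -0.81 for Itgb2 and Itgb7. Itgae was under the limit on low values over the 10 points and was not compared.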

How the data were processed

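Per the submitters' processing notes, reads were processed with Cell Ranger 6.1.2 on mm10, and the authors deposited whole-number UMI counts per gene and cell for 7355 and 8043 barcodes, with no normalization. Per the file headers, the gene and barcode lists hold no measurement. Barcodes with 500 to 7500 genes and at most 15% mt- UMIs were kept. Scrublet in scanpy 1.11.5 called 0 doublets in each library, so the call did not work and doublets remained. The T gate needed 3 UMIs of 6 T cell genes and under 50 myeloid, 50 erythroid and 5 B cell UMIs per 10000, and a conventional CD4 cell a Cd4 UMI with none of Cd8a, Cd8b1 or Foxp3. Python 3.11.15, numpy 2.4.6, scipy 1.17.1, pandas 2.3.3 and matplotlib 3.10.9 were used. UMIs were summed per gate and divided by the gate's total. Ratios carry exact conditional binomial intervals of the rates, and those of chain ratios use a normal approximation at high counts. No sample was left out and no count model was used, since each day is 1 library and cells are not replicates. The calculations were tested on simulated data. The members and gene lists were chosen with earlier results of these data known. All 9 members are named, with up to 4 genes per list having the largest ratio in CD8 cells by day at a mean of at least 10 CPM, and the 3 genes most like each member. Scaling, limits, gates and thinning were varied. Protein sequences were not used here.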

Additional observations from a re-analysis of the deposited data

Results flagged for a closer look

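Itga4 and Cd44 differed between days in opposite directions in the 2 lineages. The log2 ratio of day +14 over day +7 for Itga4 was -0.19 in CD8 cells and 0.29 in conventional CD4 cells, and for Cd44 it was -0.39 and 0.34. Both were noted because all 4 counting intervals exclude 0 with opposite signs. CD8 and CD4 cells of a day came from the same library, 1 per day, so the difference was not tested between animals. In cycling conventional CD4 cells, Cd44 was at 0.01, with an interval that includes 0, and at 0.51 with each cell thinned to 4000 UMIs. Relative to the median gene, Itga4 was at -0.37 in CD8 and 0.14 in conventional CD4 cells, and Cd44 at -0.57 and 0.19.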

How the results depend on the processing

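No paired analysis was possible because each day has 1 library, and no replicate could be left out. Over the alternatives tried for the ratio of day +14 over day +7 in CD8 cells, Itgb1 stayed between -0.87 and -0.63, Itgb7 between -0.69 and -0.48, Itgal between 0.21 and 0.50, Itgb2 between 0.25 and 0.52, Icam1 between 0.35 and 0.66, Itga4 between -0.40 and -0.16 and Cd44 between -0.60 and -0.35. In conventional CD4 cells Itga4 stayed between 0.17 and 0.38 and Cd44 between 0.25 and 0.69. Counts by day are given with the percent of all genes past the same limit in brackets. Scaling by the median ratio gave 2 lower genes [4.51%] in place of 0 in all kept cells, 3 [4.86%] in place of 1 in CD8, 2 [4.28%] in place of 0 in cycling CD8, 2 [3.67%] in place of 1 in conventional CD4 and 1 [4.53%] in place of 0 in cycling CD4 cells, and 0 higher [7.71%] in place of 2 in non-cycling CD8 cells. The mean of per-cell CPM gave 2 higher genes [12.7%] in place of 0 in all kept cells, 1 in place of 0 in CD8 [12.1%], cycling CD8 [9.39%] and cycling CD4 cells [17.9%], 3 in place of 2 in non-cycling CD8 [19.3%] and conventional CD4 cells [21.1%], and 1 lower [2.55%] in place of 0 in cycling CD8 cells. Thinning to 4000 UMIs gave 1 higher in place of 0 in all kept [10.4%], CD8 [10.7%], cycling CD8 [9.23%] and cycling CD4 cells [19.1%], 3 [17.8%] in place of 2 in conventional CD4 cells, and 1 lower in place of 0 in all kept [2.94%] and cycling CD8 cells [2.68%]. A cycling limit of 20 gave 1 higher [15.4%] in place of 2 in non-cycling CD8 cells and 1 [10.8%] in place of 0 in cycling CD4 cells, and a limit of 5 gave 2 [13.1%] in place of 0 in the latter. The 4 higher genes of non-cycling CD4 cells became 2 [21%] without ribosomal, mitochondrial and rRNA-associated genes in the total and 3 with 2 gate UMIs [24.2%], with a cycling limit of 5 [23.3%] or with no limits on other cell types [22.7%], and the 1 lower became 2 [5.66%] with 2 gate UMIs.

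For cycling over non-cycling CD8 cells, Itgb1 on day +7 lay between -0.73 and -0.50 over the alternatives, and Icam1 on day +14 between -0.75 and -0.49. Icam1 on day +7 lay between -0.63 and -0.39, and Itgal on day +14 between -0.63 and -0.44. Each was lowest without ribosomal, mitochondrial and rRNA-associated genes in the total and highest after thinning. Whether these genes were past 1.5-fold therefore depended on the setting. By day in Foxp3+ cells, Itgae lay between 0.13, with 2 gate UMIs, and 1.41, after thinning. Icam1 lay between 0.46, in the alternative described next, and 1.35, after thinning. Neither gene stayed past 1.5-fold in every alternative. An alternative chosen after seeing the data kept Foxp3+ cells whatever their Cd8 UMIs (199 and 89 cells). Against conventional CD4 cells, the lower genes then numbered 2 [4.19%] in place of 4 on day +7 and 3 [6.6%] in place of 5 on day +14. Against CD8 cells, 1 was higher [3.96%] in place of 2 on day +7, where Itgae, at 2.52, had a mean under 10 CPM and Icam1 was at 0.98, and 2 were lower [3.5%] in place of 5 on day +14. No ratio past 1.5-fold changed sign in any alternative. The number of UMIs limits Itgae and the whole Foxp3+ gate, where counts of 6 to 26 UMIs lie behind Cd44, Itgae and Icam1.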
